A study of Mus musculus with 15 samples.

Results

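The genes described here are 10 brakes on cell proliferation: the cyclin-dependent kinase (CDK) inhibitor genes Cdkn1a, Cdkn1b, Cdkn1c and Cdkn2c, the stress genes Gadd45a, Gadd45b and Gadd45g, the p53-induced gene Trp53inp1, and the antiproliferative genes Btg1 and Btg2. They were chosen by name, with earlier results of these data known. All 10 had a value on the arrays and all 10 passed the filter on dim genes, among 15041 genes with a value and 9927 tested. RNA was measured on 15 Affymetrix mouse exon arrays in 2 mouse cell lines exposed to dexamethasone, a synthetic glucocorticoid hormone, at 100 nM. The 3134 line derives from C127, mammary tumour cells of an RIII mouse, and AtT-20 is a line of pituitary corticotrophs, the cells that make ACTH. Each line had 2 arrays at 0 h without hormone and 2 arrays each at 2 h and 4 h of hormone. At 8 h 3134 had 2 arrays and AtT-20 had 1. No array without hormone stands at 2, 4 or 8 h, so hormone and time since 0 h cannot be told apart. The labels call the 0 h cells untreated in one place and vehicle treated in another, and all cells were kept in hormone-stripped serum before the exposure. Each line is a single line standing for its cell type, and nothing says that replicates came from separate cultures, so p-values cover no more than the variation among these arrays, and that may be technical.

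The CIP/KIP inhibitors p21 (Cdkn1a), p27 (Cdkn1b) and p57 (Cdkn1c) bind cyclin-CDK complexes and hold cells in G1, and p18 (Cdkn2c) of the INK4 family binds CDK4 and CDK6. The Gadd45 proteins are small stress sensors that bind p21, PCNA and the kinase MTK1 upstream of p38 and JNK. Trp53inp1 is a nuclear protein that acts with p53 in arrest and cell death, and Btg1 and Btg2 recruit deadenylases to messenger RNA and slow the passage from G1 to S phase. Glucocorticoids slow proliferation in many cell types and restrain corticotrophs through negative feedback.

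Values below are log2 levels after quantile normalization of the 15 arrays, where 1 unit is a doubling, and a gene's value is the median over its exon probesets (short probe groups that each read 1 stretch of an exon). Changes are given as log2 differences ± SE from limma, with p-values adjusted by Benjamini and Hochberg's method over the 9927 tested genes and a threshold of 0.05. The deposited columns fell into runs with medians of 7.83 to 8.14 and 6.76 to 7.20 in 3134 and of 7.51 to 7.86 and 6.93 to 7.22 in AtT-20, matching the lower and higher serial numbers in the titles. A second fit therefore carried the run as a block, and its adjusted p is given where it changes a call. At 0 h, 7 of 7 corticotroph markers with a value were above the filter level of 6.59 in AtT-20 and 0 of 7 in 3134. In 3134, 7 of 8 mesenchymal but only 3 of 9 epithelial markers were above it. These 3 were Krt8 (6.77), Krt14 (7.03) and Esr1 (7.33), while the epithelial adhesion genes Epcam and Cdh1 lay at 4.32 and 5.73. The 3134 arrays thus carried mesenchymal more than epithelial markers, although the label gives a mammary tumour origin. Known glucocorticoid-induced genes checked the exposure, over the mean of 2, 4 and 8 h in 3134 and of 2 and 4 h in AtT-20. Fkbp5 rose by 2.84 ± 0.13 in 3134 and by 0.91 ± 0.13 in AtT-20, and Per1 by 2.49 ± 0.14 and 1.25 ± 0.15 (limma adjusted p = 2.8e-07, 0.0182, 2.07e-06 and 0.00468). Tsc22d3 rose by 2.73 ± 0.27 in 3134 (limma adjusted p = 0.000159) and differed by 0.66 ± 0.29 in AtT-20, which did not pass. In bulk RNA such as this, fewer cells of a kind and less RNA per cell cannot be told apart.

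The promoters of the members that moved in 3134, in either direction, are shown first. Sequences are the 250 bases before the annotated RNA start, 5′ to 3′ on the gene's strand, from RefSeq on GRCm38.p6. Of the 10 genes, all but Cdkn1c and Trp53inp1 had one, and Cdkn1a and Cdkn2c had 2 each. Capitals mark motif matches on either strand.
Cdkn1a, upstream start (chr17:29090729-29090978, plus strand): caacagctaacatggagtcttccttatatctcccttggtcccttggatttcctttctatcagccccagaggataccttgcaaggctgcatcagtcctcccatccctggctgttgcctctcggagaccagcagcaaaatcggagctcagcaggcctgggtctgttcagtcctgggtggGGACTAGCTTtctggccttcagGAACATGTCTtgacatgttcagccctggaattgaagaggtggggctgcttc
Cdkn1a, downstream start (chr17:29093519-29093768, plus strand): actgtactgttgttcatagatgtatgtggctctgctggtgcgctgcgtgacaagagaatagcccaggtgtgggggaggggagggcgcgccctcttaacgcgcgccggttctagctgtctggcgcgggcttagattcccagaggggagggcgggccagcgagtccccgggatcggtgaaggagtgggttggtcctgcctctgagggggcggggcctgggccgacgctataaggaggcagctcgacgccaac
Gadd45g (chr13:51846425-51846674, plus strand): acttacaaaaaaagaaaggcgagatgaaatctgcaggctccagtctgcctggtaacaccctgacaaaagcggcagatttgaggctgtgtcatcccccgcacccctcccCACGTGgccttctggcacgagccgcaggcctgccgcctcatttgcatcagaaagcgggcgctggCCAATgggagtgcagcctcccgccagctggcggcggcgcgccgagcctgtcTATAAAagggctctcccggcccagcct
Gadd45b (chr10:80929841-80930090, plus strand): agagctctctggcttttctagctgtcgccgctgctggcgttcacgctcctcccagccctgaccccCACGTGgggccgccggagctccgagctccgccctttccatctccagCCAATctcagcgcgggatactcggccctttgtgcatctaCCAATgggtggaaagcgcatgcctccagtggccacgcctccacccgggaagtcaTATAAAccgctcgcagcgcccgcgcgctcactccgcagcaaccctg
Gadd45a (chr6:67037408-67037657, minus strand): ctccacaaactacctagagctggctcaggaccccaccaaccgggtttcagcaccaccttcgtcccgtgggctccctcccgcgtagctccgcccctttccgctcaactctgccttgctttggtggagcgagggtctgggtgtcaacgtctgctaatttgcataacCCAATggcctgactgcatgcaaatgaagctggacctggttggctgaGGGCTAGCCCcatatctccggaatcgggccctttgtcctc
Btg1 (chr10:96616751-96617000, plus strand): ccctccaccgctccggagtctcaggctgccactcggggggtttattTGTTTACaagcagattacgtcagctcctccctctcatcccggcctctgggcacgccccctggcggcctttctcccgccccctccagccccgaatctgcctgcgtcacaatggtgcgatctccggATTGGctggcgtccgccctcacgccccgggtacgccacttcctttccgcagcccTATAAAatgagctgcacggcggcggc

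Both strands were searched for a loose glucocorticoid response element (GNACA, then 3 bases of any kind, then TGTNC) and for the hexamer AGAACA, one arm of such an element, which can overlap it. The other motifs were TGACTCA for AP-1, TGACGTCA for the cAMP response element, GTAAACA for FoxO factors, CACGTG for the E-box, CCAAT for the box bound by NF-Y, TATAAA for the TATA box and the p53 decamer, the repeated unit of p53 response elements. The loose response element stood in 0.387% of 32851 RefSeq mouse promoters of this length and in none of the 10 member promoters. The receptor hexamer, present in 16.1% of all promoters, stood in 1 of the 10, the upstream one of Cdkn2c. In the upstream Cdkn1a promoter the decamers GGACTAGCTT and GAACATGTCT began at positions -73 and -51 from the start, and the Gadd45a promoter held GGGCTAGCCC at -40, while 7.13% of all promoters held a p53 decamer. The downstream Cdkn1a promoter, whose start lies 2790 bases from the other, held no match. Gadd45g and Gadd45b each held an E-box (6.02% of all promoters), 1 or 2 CCAAT boxes (33.8%) and a TATAAA box (12.4%) in the same order. The Gadd45a promoter above held the CCAAT box alone of these 3, and neither Cdkn1a promoter held any of them. The Btg1 promoter held a FoxO site on the other strand at -204 (3.17% of all), a CCAAT box on the other strand at -80 and TATAAA at -26. Among the promoters not printed, Btg2 held TGACGTCA (1.55% of all) and 2 CCAAT boxes, and Cdkn1b held 2 CCAAT boxes. A match is a description of letters and not of a bound site. Whether any motif goes with the direction of a gene's change was not tested.

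Before hormone the lines already differed in most of these genes. At 0 h, 8 of the 10 passed the test between the lines, 4 in each direction, against 54.5% of all tested genes, and the same 8 passed with the block (66.9%). Cdkn1c was higher in AtT-20 by 2.96 ± 0.26 (limma adjusted p = 1.1e-06), Cdkn1a by 1.75 ± 0.19 (3.36-fold, 5.77e-06), Btg2 by 1.68 ± 0.22 (3.2-fold, 3.92e-05) and Trp53inp1 by 1.03 ± 0.19 (2.04-fold, 0.000522). Gadd45g was higher in 3134 by 1.89 ± 0.21 (limma adjusted p = 1e-05), Btg1 by 1.74 ± 0.22 (3.34-fold, 2.65e-05), Cdkn1b by 1.14 ± 0.17 (2.21-fold, 9.36e-05) and Gadd45b by 1.06 ± 0.22 (2.09-fold, 0.00133). No fold is given for Cdkn1c and Gadd45g, because at 0 h Cdkn1c in 3134 (5.80) and Gadd45g in AtT-20 (6.14) lay below the filter level, and these genes passed the filter through their other groups. With the brighter probesets alone the Cdkn1c difference was -1.69. Gadd45a (0.05 ± 0.33, adjusted p = 0.908) and Cdkn2c (-0.47 ± 0.32, adjusted p = 0.243) did not pass in limma. On the deposited scale without a block, which moves the median difference of all genes from -0.10 to 0.22, 3 of the 8 passed, namely Btg1, Cdkn1c and Gadd45g. The share of all genes called there is not given here. The Btg1 difference was 0.83 as a mean over its probesets and the Trp53inp1 difference -0.65 on the deposited scale.

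**Figure D1:**
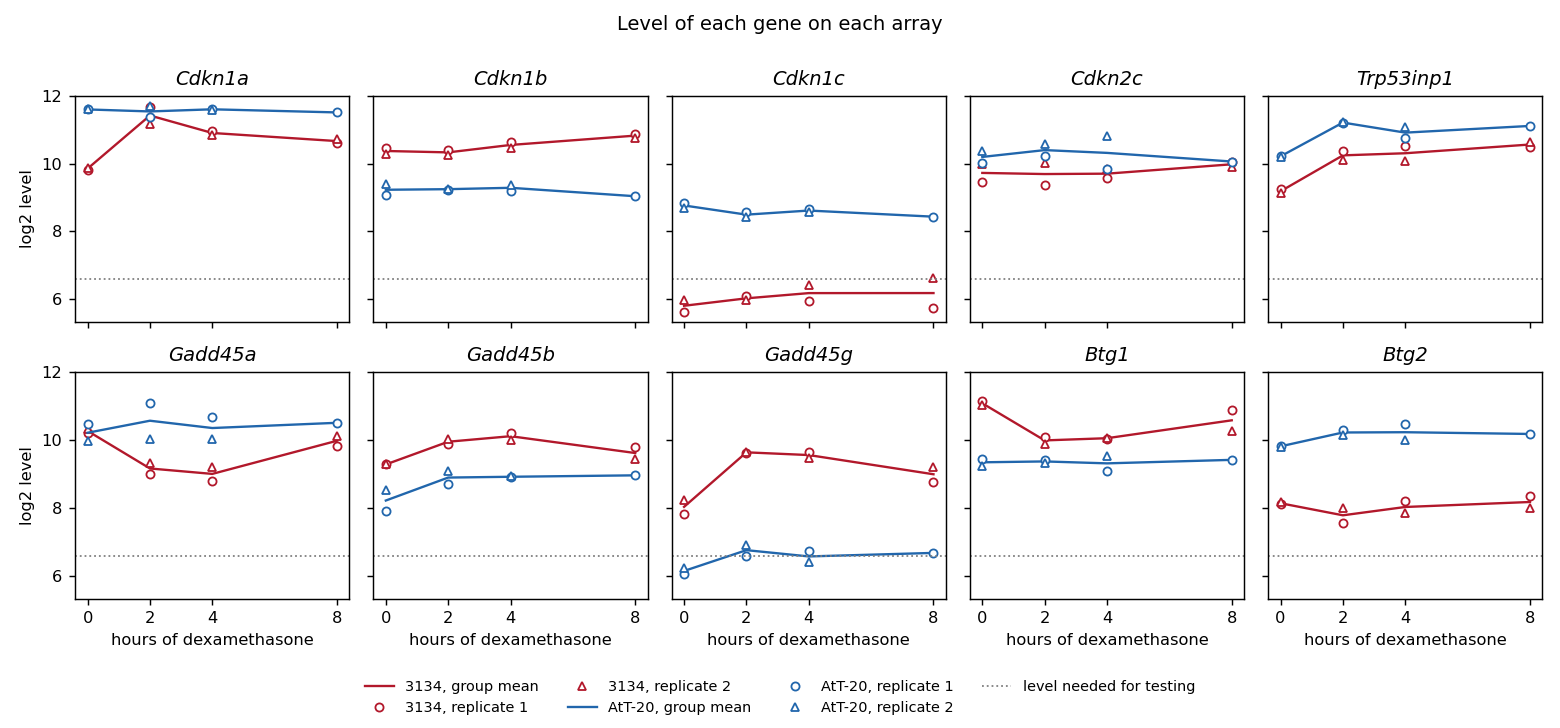
Log2 level of each of the 10 genes (y axis) against hours of dexamethasone (x axis), in 3134 (red) and AtT-20 (blue). Circles and triangles are the arrays of replicates 1 and 2, lines join group means and the dotted line is the filter level of 6.59. Cdkn1a in 3134 starts at 9.82 and 9.88, reaches 11.67 and 11.17 at 2 h and comes near the AtT-20 level, which stays between 11.37 and 11.70.

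In 3134 cells these brakes moved both up and down over the hours of dexamethasone. Over the mean of 2, 4 and 8 h, Gadd45g (1.37 ± 0.17, 2.58-fold), Trp53inp1 (1.19 ± 0.15, 2.28-fold) and Cdkn1a (1.14 ± 0.15, 2.21-fold) rose and Btg1 fell by 0.88 ± 0.18 (1.84-fold), with limma adjusted p of 0.000868, 0.000894, 0.00111 and 0.0219. These 4 of 10 stand against 2.43% of all tested genes, and the members' median was 0.26 against -0.02 over all genes. With the run block 6 of 10 passed, the further ones being Gadd45b (0.61 ± 0.18, adjusted p = 0.0167 with the block and 0.135 without) and Gadd45a (-0.89 ± 0.27, 0.000677 and 0.164), against 6.55% of all genes. By time, 4 members passed at 2 h (1.22% of all genes), the same 4 at 4 h (1.91%) and Cdkn1a, Gadd45g and Trp53inp1 at 8 h (2.19%). With the block the counts were 5, 6 and 4 (2.98%, 5.17% and 7.88% of all genes). These comparisons share their 0 h arrays, so they are not independent of each other. The call for Btg1 over the 3 times was lost without either 0 h array (adjusted p = 0.307 and 0.195), 4 h replicate 1 (0.0536) or 2 h replicate 2 (0.0557), while the other 3 held without any 1 array, at adjusted p of 0.0377 or less. On the deposited scale without the block 0 members passed at any time in 3134. At 2 h the values there were still 1.61 for Gadd45g and 1.48 for Cdkn1a. The share of all genes called on that scale is not given here, so the 0 cannot be read as particular to these genes.

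**Figure D2:**
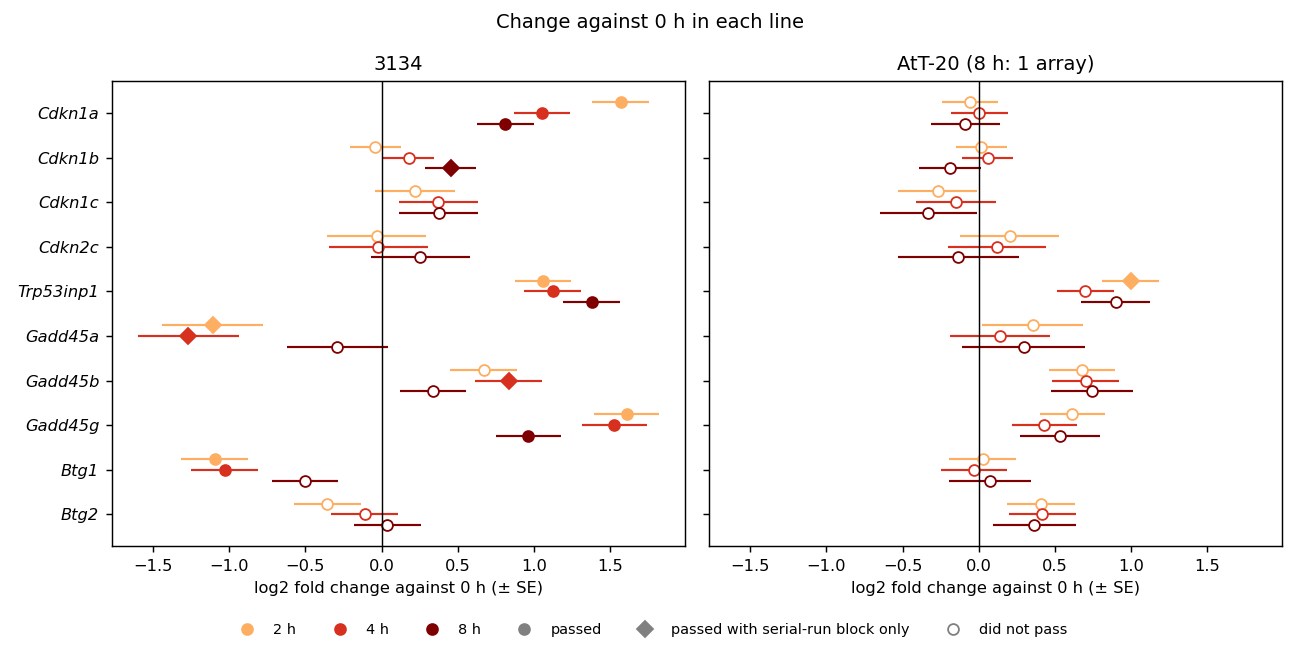
Log2 fold change against 0 h (x axis, bars are ± SE) of each gene (y axis) at 2, 4 and 8 h in 3134 (left) and AtT-20 (right, 8 h from 1 array). Filled circles passed at an adjusted p under 0.05, diamonds passed with the run as a block alone and open circles did not pass. In 3134 Cdkn1a, Gadd45g and Trp53inp1 lie to the right of 0 at all 3 times and Gadd45a and Btg1 to the left.

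Among the CDK inhibitors, Cdkn1a was the gene that rose. Its levels on the 3134 arrays were 9.82 and 9.88 at 0 h, 11.67 and 11.17 at 2 h, 10.97 and 10.83 at 4 h, then 10.61 and 10.71 at 8 h. All 6 exposed arrays lay above both 0 h arrays. The share of all genes with such separation was not counted, here or for the genes below, so it is a description alone. The rise was 1.57 ± 0.19 at 2 h (2.96-fold, limma adjusted p = 0.000985), 1.05 ± 0.19 at 4 h (0.0107) and 0.81 ± 0.19 at 8 h (0.0453). Both 2 h arrays were above both 8 h arrays, and the 8 h level differed from that at 2 h by -0.76 ± 0.19, which passed with the block (adjusted p = 0.0369) and not without it (0.213). In that comparison limma called 0 members without the block (0.0907% of all genes) and Cdkn1a and Gadd45a with it (1.99%). At an unadjusted p under 0.05 without the block there were 5 members and 724 of the 9927 genes. Leaving out any 1 of the arrays compared ended the call at 4 h (adjusted p = 0.0592 to 0.112) and at 8 h (0.145 to 0.269) but not at 2 h (0.0193 or less). Without a second normalization the values at 4 and 8 h were 0.69 and 0.36, while the median over all genes shifted to -0.31 and -0.37.

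The other CDK inhibitors moved less. Cdkn1b was at 10.47 and 10.28 on the 3134 arrays at 0 h, 10.41 and 10.25 at 2 h, 10.64 and 10.46 at 4 h, then 10.89 and 10.76 at 8 h. Only at 8 h did both arrays lie above both 0 h arrays. The 8 h difference was 0.45 ± 0.17, which passed with the block (adjusted p = 0.0476) and not without it (limma adjusted p = 0.279). On the deposited scale it was 0.0068. Cdkn1c, the p57 gene that glucocorticoids induce in some other cell types, had a low median over its probesets in 3134. Its levels there were 5.63 and 5.98 at 0 h, 6.08 and 5.97 at 2 h, 5.94 and 6.41 at 4 h, then 5.74 and 6.62 at 8 h. All 4 group means lay below the filter level of 6.59 although 4 of its 10 probesets were above it, the arrays overlapped with those at 0 h, and the mean difference of 0.32 ± 0.21 did not pass (limma adjusted p = 0.817). Cdkn2c ranged from 9.36 to 10.05 in 3134 with the groups overlapping, and its mean difference was 0.07 ± 0.26 (limma adjusted p = 0.996).

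The 3 Gadd45 genes did not move together in 3134. Gadd45g was at 7.82 and 8.25 at 0 h, 9.62 and 9.67 at 2 h, 9.65 and 9.48 at 4 h, then 8.77 and 9.22 at 8 h. Every exposed array was above both 0 h arrays. Gadd45g rose by 1.61 ± 0.21 at 2 h (3.05-fold, limma adjusted p = 0.00269), 1.53 ± 0.21 at 4 h (0.00243) and 0.96 ± 0.21 at 8 h (0.0395). The calls at 2 and 4 h held without any 1 array (adjusted p of 0.0495 or less), and the call at 8 h was lost without any 1 of the 4 (0.054 to 0.346). On the deposited scale the 8 h value was 0.59.

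Gadd45b was at 9.29 and 9.28 at 0 h, 9.88 and 10.03 at 2 h, 10.22 and 10.02 at 4 h, then 9.81 and 9.43 at 8 h. All 6 exposed arrays were above both 0 h arrays, a separation not counted over all genes, and no time passed without the block. At 4 h the difference was 0.83 ± 0.22, with a limma adjusted p of 0.0104 with the block and 0.102 without. As a mean over its probesets Gadd45b passed without the block at 2 h (0.78, limma adjusted p = 0.0116) and 4 h (0.79, 0.00784). Its values were smaller on the deposited scale, at 0.48 at 4 h and 0.34 over the 3 times, and did not pass. Gadd45a, the p53-responsive member of the family, went the other way, with 10.22 and 10.33 at 0 h, 9.01 and 9.32 at 2 h, 8.81 and 9.20 at 4 h, then 9.84 and 10.13 at 8 h. All exposed arrays lay below both 0 h arrays, and those at 8 h stood nearer to 0 h than those at 2 and 4 h did. The differences were -1.11 ± 0.33 at 2 h, -1.27 ± 0.33 at 4 h and -0.29 ± 0.33 at 8 h. With the block the first 2 passed (adjusted p = 0.000997 and 0.000241), as did the return from 2 h to 8 h (0.82, 0.0173), and without it they did not (limma adjusted p = 0.258, 0.0993 and 0.594). The return was 0.44 on the deposited scale and did not pass with or without the block. Within each run the size was like, at -1.20 and -1.01 at 2 h and -1.41 and -1.13 at 4 h in replicates 1 and 2. Fitted on the 3134 arrays alone, without AtT-20, both times passed without the block (limma adjusted p = 0.0424 and 0.0168).

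Trp53inp1 rose and stayed high in 3134. Its arrays were at 9.25 and 9.12 at 0 h, 10.37 and 10.11 at 2 h, 10.52 and 10.09 at 4 h, then 10.49 and 10.64 at 8 h, so that all exposed arrays were above both at 0 h. The rises were 1.06 ± 0.19 at 2 h, 1.12 ± 0.19 at 4 h and 1.38 ± 0.19 at 8 h (2.6-fold), with limma adjusted p of 0.0157, 0.00737 and 0.00192. The 2 h call was lost without any 1 of its 4 arrays (adjusted p = 0.0568 to 0.191), the 4 h call without 4 h replicate 1 (0.0936) or either 0 h array (0.0572 and 0.0977), and the 8 h call held (0.0323 or less). Its 8 h level exceeded that at 2 h by 0.32 ± 0.19, which did not pass (limma adjusted p = 0.761).

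The antiproliferative pair differed. Btg1 was at 11.15 and 11.03 at 0 h in 3134, 10.09 and 9.90 at 2 h, 10.05 and 10.07 at 4 h, then 10.90 and 10.27 at 8 h. It fell by 1.10 ± 0.22 at 2 h and by 1.03 ± 0.22 at 4 h (limma adjusted p = 0.0331 and 0.0333), and the 8 h arrays, also both below 0 h but nearer to it, did not pass (-0.50 ± 0.22, 0.394). The 8 h value was -0.82 without 8 h replicate 1 and -0.19 without 8 h replicate 2, and on the deposited scale it was -0.92, which passed with the block (0.0131). Both calls were lost without any 1 of the arrays compared (adjusted p = 0.156 to 0.298 at 2 h and 0.17 to 0.262 at 4 h). The size also depended on the summary: the 5 Btg1 probesets above the filter level all fell, by 0.57 to 1.10 at 2 h, while 2 dim ones differed by 0.30 and 1.56. The mean over all 7 gave -0.31 at 2 h, -0.59 at 4 h and -0.30 over the 3 times, none passing (adjusted p = 1, 0.333 and 0.681). The median over the brighter probesets gave -0.84, -0.58 and -0.56, of which the value at 4 h did not pass (0.0129, 0.0726 and 0.0245). Btg2, an immediate early gene, was at 8.11 and 8.17 at 0 h and between 7.56 and 8.36 on exposed arrays, which overlapped with 0 h at 4 and 8 h, and its mean difference was -0.14 ± 0.18 (limma adjusted p = 0.969).

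In AtT-20 cells no member passed at 2, 4 or 8 h or over the mean of 2 and 4 h without the block, where limma called 0.0907%, 0.171%, 0.121% and 0.181% of all genes. At an unadjusted p under 0.05 there were 3, 2, 2 and 3 members, and 238, 337, 304 and 340 of the 9927 genes. With the block Trp53inp1 passed at 2 h and over the mean, against 0.322% and 0.766% of all genes, and none passed at 4 h (0.866%) or 8 h (0.443%). Trp53inp1 was at 10.22 and 10.21 at 0 h, 11.20 and 11.22 at 2 h, 10.75 and 11.07 at 4 h and 11.11 on the single 8 h array. All 5 exposed arrays were above both 0 h arrays. For AtT-20 too the share of all genes with such separation was not counted, for this gene and those below. The difference was 1.00 ± 0.19 at 2 h (limma adjusted p = 0.0158 with the block and 0.136 without) and 0.85 ± 0.16 over 2 and 4 h (0.0109 and 0.0977), and with the mean over probesets the latter was 1.02 (0.00965 without the block).

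The Gadd45 genes that were high with hormone in 3134 were also higher in AtT-20, without passing. Gadd45b was at 7.92 and 8.52 at 0 h, 8.71 and 9.08 at 2 h, 8.91 and 8.94 at 4 h and 8.96 at 8 h. All exposed arrays were above both 0 h arrays, which themselves differed more than in 3134. The difference over 2 and 4 h was 0.69 ± 0.19 (limma adjusted p = 0.605 without and 0.0548 with the block). It was 0.39 without 0 h replicate 1 and 0.99 without 0 h replicate 2, and it was 1.06 and passed (0.00163) when the mean over the 7 probesets replaced the median. Gadd45g was at 6.07 and 6.22 at 0 h, below the filter level, then at 6.59 and 6.92 at 2 h, 6.72 and 6.42 at 4 h and 6.67 at 8 h. Its exposed arrays again all lay above 0 h, by 0.52 ± 0.18 over 2 and 4 h (limma adjusted p = 1).

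The genes that fell or were lower in 3134 showed no such difference in AtT-20. Gadd45a was at 10.47 and 9.97 at 0 h, 11.11 and 10.04 at 2 h, 10.68 and 10.04 at 4 h and 10.51 at 8 h, with replicate 1 above replicate 2 at 0, 2 and 4 h. Btg1 was at 9.45 and 9.25 at 0 h, 9.42 and 9.32 at 2 h, 9.08 and 9.55 at 4 h and 9.42 at 8 h, and the groups overlapped. Over 2 and 4 h Gadd45a differed by 0.25 ± 0.29 and Btg1 by -0.0028 ± 0.19 (both limma adjusted p = 1). Cdkn1a stood at 11.60 and 11.60 at 0 h, 11.37 and 11.70 at 2 h, 11.62 and 11.59 at 4 h and 11.51 at 8 h. Its difference over 2 and 4 h was -0.03 ± 0.16, with a 95% interval from -0.38 to 0.32, which leaves out a rise of the size seen in 3134. Btg2 was at 9.83 and 9.81 at 0 h and between 9.99 and 10.48 on all 5 exposed arrays, by 0.41 ± 0.19 over 2 and 4 h (limma adjusted p = 1). Cdkn1c went from 8.84 and 8.69 to between 8.43 and 8.67, Cdkn1b stayed between 9.04 and 9.39 and Cdkn2c between 9.83 and 10.80, and none of these passed. Between 2 h and 4 h in AtT-20 limma called 0 members with or without the block (0% of all genes without and 0.0201% with it), and 0 at an unadjusted p under 0.05 without it.

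The lines' responses were then set against each other, as the mean of 2 and 4 h against 0 h in 3134 minus the same in AtT-20. The genes of the exposure check also responded more in 3134: Fkbp5 by 1.95 ± 0.19 and Per1 by 1.38 ± 0.22 (limma adjusted p = 0.000544 and 0.0125). Tsc22d3 differed by 1.92 ± 0.40, which did not pass without the block (0.0643). Cdkn1a responded more in 3134, by 1.34 ± 0.23 (95% interval 0.84 to 1.83, limma adjusted p = 0.0192), and was the 1 member of 10 called, against 0.645% of all genes. Its level in 3134 was 1.75 below that of AtT-20 at 0 h, 0.12 below at 2 h, 0.70 below at 4 h and 0.85 below at 8 h. The call was lost without either 0 h array of 3134 (adjusted p = 0.143 and 0.117) or of AtT-20 (0.0728 and 0.0903). With the block 4 members passed (2.79% of all genes): Cdkn1a (0.00264), Gadd45a (-1.44 ± 0.41, 0.000966), Btg1 (-1.06 ± 0.27, 0.0267) and Gadd45g (1.05 ± 0.26, 0.0279), and without it the last 3 had adjusted p of 0.238, 0.147 and 0.139. As a mean over probesets the Btg1 difference was -0.25 and did not pass. Trp53inp1 and Gadd45b gave no detectable difference between the lines, with values of 0.24 (95% interval -0.26 to 0.74) and 0.06 (-0.52 to 0.65), intervals that still allow differences of about the size of their changes in AtT-20. Cdkn1b (0.03 ± 0.20), Cdkn1c (0.51 ± 0.32), Cdkn2c (-0.19 ± 0.40) and Btg2 (-0.65 ± 0.27) did not pass.

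Single probesets told whether a gene's value rested on a few exons. In 3134 over the 3 times, all 5 probesets of Cdkn1a were higher (0.95 to 1.23), as were all 6 of Gadd45g (1.18 to 1.45), all 6 of Trp53inp1 (1.07 to 1.27) and all 7 of Gadd45b (0.60 to 0.71). All 7 of Gadd45a were lower, by a wider range from -1.54 to -0.49. Agreement in direction was not limited to genes that passed. All 10 probesets of Cdkn1c (0.09 to 0.78), all 4 of Cdkn1b (0.07 to 0.45) and all 3 of Cdkn2c (0.07 to 0.18) were higher. The 4 of Btg2 were all lower (-0.19 to -0.0011), and of the 7 of Btg1, 6 were lower. The share of all genes with such agreement was not counted. In AtT-20 over 2 and 4 h, the 7 of Gadd45b were all higher but ranged from 0.52 to 1.75 around the median of 0.69. Unequal change among probesets of a gene, tested with limma's diffSplice, called 0 of the 10 members in either response (0 at an unadjusted p under 0.05, and with the block 0 called and 2 and 1 at that level), against 0.199% and 0.545% of 15041 genes and, with the block, 2.29% and 5.05%.

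**Figure D3:**
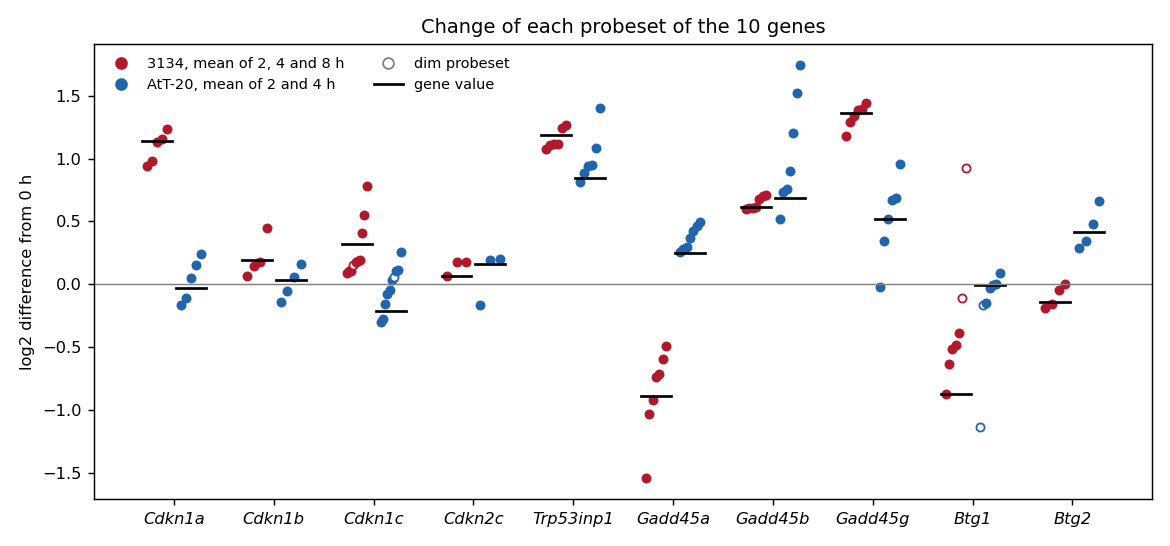
Log2 difference from 0 h (y axis) of each probeset of the 10 genes (x axis), in 3134 over 2, 4 and 8 h (red) and AtT-20 over 2 and 4 h (blue). Open circles are probesets dim in all groups and bars are the gene values. The Gadd45g and Trp53inp1 probesets of 3134 lie close together, and 1 dim Btg1 probeset of 3134 lies at 0.92 while the 5 bright ones lie between -0.88 and -0.39.

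Between the lines at 0 h diffSplice called Cdkn1c (adjusted p = 0.000126) and Cdkn1a (0.0079), against 23.8% of all genes, and 6 members with the block (45.5%). Of the 10 Cdkn1c probesets 9 were lower in 3134, with differences from -5.07 to 0.22. Averaged over all arrays of a line, 4 of them were above the filter level in 3134, at 9.57, 8.82, 8.75 and 7.23 against 10.44, 8.93, 8.74 and 7.86 in AtT-20. The other 6 lay between 4.33 and 6.25 in 3134 and between 6.10 and 10.06 in AtT-20. The 5 Cdkn1a probesets were all lower in 3134, by 0.11 to 1.88. Averaged in the same way, the dimmest of them lay near the filter level, at 6.58 in 3134 and 6.09 in AtT-20. The others lay between 10.02 and 12.13, so the spread among these probesets includes a dim one.

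Profiles were compared over the 8 group means after centring each line, as a description over points that share arrays and normalization. Among the members, Gadd45g correlated with Gadd45b (Pearson r = 0.88) and with Cdkn1a (0.88), and Btg1 with Gadd45a (0.94) and inversely with Cdkn1a (-0.95). Of all tested genes, those most like Cdkn1a were Sphk1 (r = 0.98), Npm3 (0.98) and Apbb2 (0.97), and those most like Gadd45g were Rgs2 (1.00), E130308A19Rik (0.99) and Per1 (0.96). Trp53inp1 was most like Akr1e1 (0.98), the p53 target Sesn1 (0.97) and Rpn1 (0.96). Btg1 was most like Pomc (0.98), Plaur (0.97) and Egln3 (0.97), each of which lay below the filter level in all groups of 1 line (Pomc at no more than 5.20 in 3134). Gadd45b was most like the mitotic kinase gene Aurkb (0.98), Tpst2 (0.98) and 1110051M20Rik (0.95), and Cdkn1b was most like Trpc4 (0.99), Fam174a (0.98) and Pura (0.97). Cdkn1c was most like Tbc1d25 (0.97), Caskin2 (0.95) and Card9 (0.95), and Btg2 was most like Tmem266 (0.97), Gm7730 (0.95) and Nap1l3 (0.95). Of these 24 genes, 7 were below the filter level throughout 1 line, where their values hold little signal. The same holds for Cdkn1c itself, whose 3134 group means lay between 5.80 and 6.18. The r values of the 24 were the highest among 9927 genes over 8 points, so they are high by selection, and none was tested.

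Other genes of the same pathways were taken from lists fixed by name. Over all tested genes 2.43% passed in 3134 over the 3 times and 6.55% with the block, against which the counts below stand, and 0.181% and 0.766% in AtT-20. An unadjusted p under 0.05 in limma was reached by 900 of the 9927 genes in 3134 and by 340 in AtT-20. With the block these were 1757 and 841. In 3134 over the 3 times, 0 of 21 cyclin, CDK and pocket protein genes passed (median -0.22, 4 at an unadjusted p under 0.05 and 1 with the block, the repressor E2f8 at -0.49 ± 0.16) and 0 of 24 S phase, G2 and mitosis genes (median -0.14, 3 at an unadjusted p under 0.05 and 3 lower with the block, among them the replication licensing gene Cdc6 at -0.72 ± 0.28). In limma 0 of 3 other CDK inhibitor genes passed, 0 at an unadjusted p under 0.05 and 0 with the block, and the one with the smallest p was the INK4 gene Cdkn2b at -0.27 ± 0.21. At 8 h alone 0 of the 21 and 0 of the 24 passed in limma, 10 and 5 had an unadjusted p under 0.05 (1139 of the 9927 genes did), and with the block 3 and 6 were lower and 0 higher (7.88% of all genes called). Named after their values were seen, the 3 were the cyclin genes Ccnd2 (-0.80 ± 0.35) and Ccne2 (-0.83 ± 0.33) and E2f8 (-0.77 ± 0.20), and the 6, Cdc6, Cdt1, Mcm3, Mcm4, Mki67 and Pcna, lay between -1.02 and -0.57. None of the genes of these 3 lists passed over the mean of 2 and 4 h in AtT-20, with the block or without, and an unadjusted p under 0.05 was reached by 0 without the block and by 2 cyclin list genes with it.

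Among 23 tested p53 pathway genes, 3 rose and 0 fell in 3134, and with the block 5 and 1. The 3 were the sestrin gene Sesn1 (1.92 ± 0.13, limma adjusted p = 6.08e-06), the p53-induced phosphatase gene Ppm1d (0.83 ± 0.13, 0.0042) and the cyclin G2 gene Ccng2 (0.85 ± 0.17, 0.0208). Sesn1 also rose in AtT-20 (1.78 ± 0.14, limma adjusted p = 9.63e-05), the 1 gene of that list called there. Of 17 BTG/TOB family and deadenylase genes, Tob2, a relative of Btg1 and Btg2, rose in 3134 (1.22 ± 0.21, limma adjusted p = 0.0074) and differed by 0.97 ± 0.22 in AtT-20 (0.261, and 0.0074 with the block).

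In limma 0 of 12 stress MAP kinase genes that act with Gadd45 proteins passed in 3134, 2 had an unadjusted p under 0.05, and with the block Map2k3 passed (-0.60 ± 0.17, adjusted p = 0.0144). None of 12 CDK inhibitor turnover genes passed without the block, 1 had an unadjusted p under 0.05, and with the block the ubiquitin ligase gene Dtl passed (-0.50 ± 0.14, limma adjusted p = 0.0226). In AtT-20 none of either list passed, 1 and 0 had an unadjusted p under 0.05, and Mapk13 passed with the block (0.86 ± 0.23, adjusted p = 0.0289). Among 20 tested FoxO, C/EBP and MYC regulators, Foxo3 (0.99 ± 0.16, limma adjusted p = 0.0042) and Cebpb (0.77 ± 0.18, 0.0463) rose and Klf4 (-0.96 ± 0.17, 0.0077) and Smad3 (-0.82 ± 0.18, 0.0317) fell in 3134, and with the block 4 rose and 3 fell. In AtT-20 0 of these 20 passed with or without the block, and 2 had an unadjusted p under 0.05 without it and 6 with it.

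**Figure D4:**
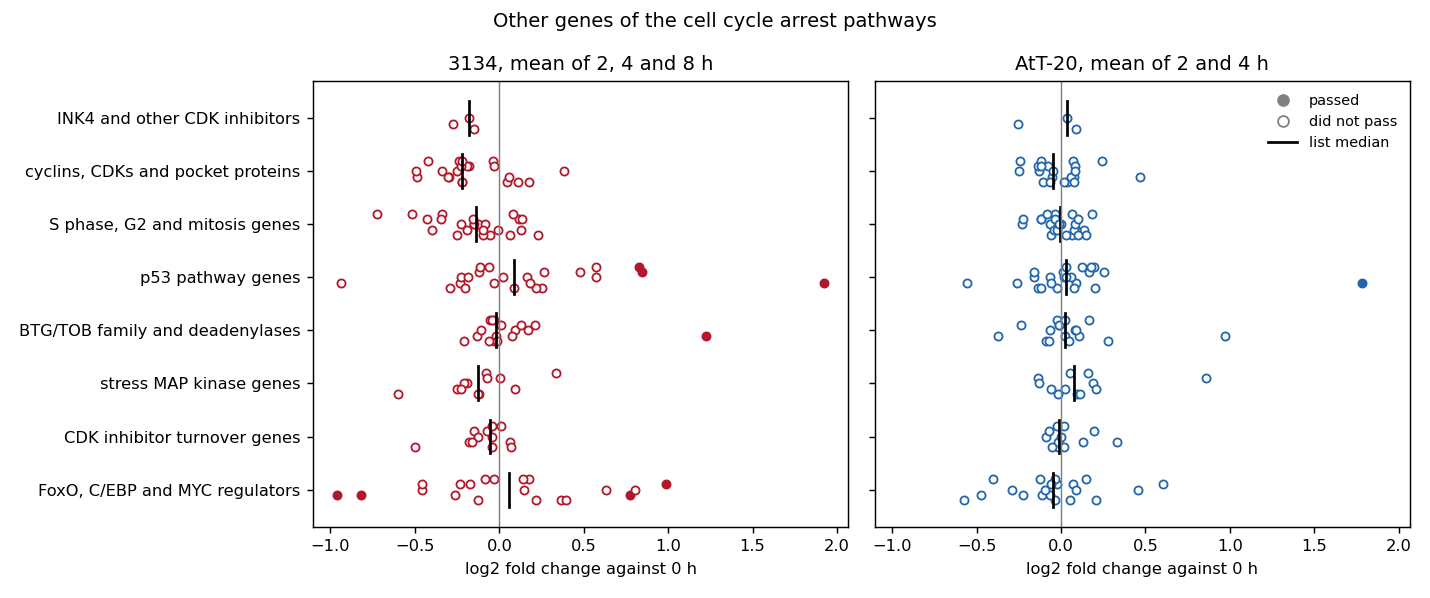
Log2 fold change against 0 h (x axis) of the tested genes of each pathway list (y axis), in 3134 over 2, 4 and 8 h (left) and AtT-20 over 2 and 4 h (right). Filled circles passed at an adjusted p under 0.05, open ones did not, and bars are list medians. Sesn1 is the rightmost point in both lines, at 1.92 and 1.78.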

How the data were processed

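The deposited values are log2 expression values per probeset of which the submitters' processing notes name RMA and the Affymetrix Expression Console as the authors' tools, with versions not given in the sources used here. Of 228090 probesets, 207232 named 1 gene, 3882 several and 16976 none in the platform annotation, and only the first kind was used, with symbols updated through RefSeq names (2073 of 16207). The 15 arrays were quantile normalized again, because the deposited columns did not share a level, and a gene with 3 or more probesets took their median. Genes with no group mean above the 40th percentile of all probeset values (6.59) were not tested, which left 9927. limma 3.58.1 in R 4.3.3 fitted 8 group means to all 15 arrays with 2-sided moderated tests, adjusted by Benjamini and Hochberg's method over the tested genes, and diffSplice tested probesets within genes. The fits without the block were tested on simulated data with independent noise and no run effect. That test therefore does not cover the correlation within runs described below, nor the fit with the block. The single AtT-20 8 h array is assumed to vary like the others. Replicates 1 and 2 are the lower and higher serial runs in the titles, and deviations from group means correlated at 0.49 to 0.59 between arrays of 1 line and number and at 0.28 to 0.39 across lines, so the numbers were taken as pairing the arrays, and the fit with the run as a block is an alternative. Arrays have no read depth, so their number limits how precise a value is. The genes and the pathway lists were chosen with earlier results of these data known. Named list genes are up to 4 called with the smallest p per list and line, or the 1 of smallest p, and the genes of like profile are the 3 with the highest Pearson r.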

Additional observations from a re-analysis of the deposited data

Results flagged for a closer look

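The Cdkn1a response differed between the lines by a test of the difference itself. The mean of 2 and 4 h against 0 h was larger in 3134 than in AtT-20 by 1.34 ± 0.23 on the log2 scale (limma adjusted p = 0.0192), and all 4 exposed 3134 arrays but not all 4 AtT-20 ones lay above their own 0 h arrays. Cdkn1a started 1.75 lower in 3134, and the part of that starting level in the difference was not tested. In the same comparison Fkbp5 differed by 1.95 ± 0.19 and Per1 by 1.38 ± 0.22 (limma adjusted p = 0.000544 and 0.0125). A larger response in 3134 was therefore not particular to Cdkn1a.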

How the results depend on the processing

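The counts of members called changed as follows. The share of all genes called also changes with the setting, as from 0.0907% to 0.322% in AtT-20 at 2 h with the block. For settings other than the block that share is not given here. These counts therefore do not tell a change in the members from one in all genes. With the replicate block they were 1 in AtT-20 at 2 h and 1 over its mean, 4 for the response difference and 2 for 8 h against 2 h in 3134, and no other count moved by over 1.5 times except exon use between the lines, which went from 2 to 6. On the deposited scale they were 0 in 3134 at 2, 4 and 8 h and over the mean, 0 for the response difference and 3 between the lines, and with the block added 1 in AtT-20 at 2 h, 2 for the response difference and 2 for 8 h against 2 h. With arrays centred on their median the 3134 8 h count was 1, and with the block added the counts were 1 and 1 in AtT-20 at 2 h and over the mean, 4 for the response difference and 3 for 8 h against 2 h. The mean over probesets gave 2, 1, 1 and 2 in AtT-20 at 2, 4 and 8 h and over the mean. The median over brighter probesets gave 1 in 3134 at 8 h, 1 over the AtT-20 mean and 0 for the response difference, no filter gave 1 and 0 for the first and last of these, a variance trend gave 1 over the AtT-20 mean and the arrays of 1 line alone gave 1 in 3134 at 8 h. Leaving out 1 array in turn gave 2 to 2 at 2 h, 1 to 2 at 4 h, 1 to 1 at 8 h and 3 to 4 over the mean in 3134, 0 to 1 for the response difference, 8 to 8 between the lines and 0 to 0 in AtT-20 and for 8 h against 2 h. For members called in any fit, 575 values kept direction and call, 81 lost the call, 49 gained it and 1 reversed, the uncalled Btg1 at 8 h in 3134, at 0.0087 with the mean over probesets. The cause of these changes was not tested. The single AtT-20 8 h array could not be left out. On the deposited scale the median of all genes differed from 0 by -0.31 at 4 h and -0.37 at 8 h in 3134, -0.21 at 4 h and 0.48 at 8 h in AtT-20 and 0.22 between the lines.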
